A study of Mus musculus with 2 samples.

Results

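The 42 genes described here are components and targets of the Wnt pathway, chosen by gene symbol, and all 42 were among the 23183 genes with an FPKM value in the deposited data. FPKM is a transcript level scaled for the length of the transcript and the depth of the library. The members are 10 Wnt ligands, 2 genes for ligand secretion, 10 receptors and co-receptors, 3 Dishevelled genes, 5 genes of the destruction complex, β-catenin, 4 TCF factors, 3 secreted inhibitors and 4 feedback targets.

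KPR- is an immortalized line from the lung tumor of a mouse carrying an activatable oncogenic *K-Ras* allele, floxed *p53*, 1 floxed and 1 *Frt-Stop-Frt* allele of *Runx3*, a Tomato reporter and the tamoxifen-inducible recombinase FlpERT2. Cre delivered by an adenovirus through the nose had switched on *K-Ras* and deleted *p53* and the floxed *Runx3* allele, so both groups carry these changes. KPRrestored cells are the same line after 4-OHT, an active form of tamoxifen, had removed the *Stop* cassette from the other *Runx3* allele. The labels give RUNX3 -/- at 0 h for the KPR- library and RUNX3 -/+ at 16 h for the KPRrestored library, and list 1 μM 4-OHT for both. Poly(A)-selected RNA was sequenced as 1 library per condition, so no difference was set against the spread between cultures, and *Runx3* restoration, 4-OHT and time cannot be told apart. *Runx3* itself was at 0.348 FPKM at 0 h and 0.349 FPKM at 16 h, from 28 and 29 fragments. A value per gene does not separate the restored allele from other *Runx3* transcripts, so it does not check the labels.

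Wnt ligands are lipid-modified secreted proteins that bind Frizzled receptors and the co-receptors Lrp5 and Lrp6. In the absence of a ligand, the destruction complex marks β-catenin for degradation. When a ligand binds, Dishevelled disables this complex, and β-catenin accumulates and activates target genes with TCF and LEF factors on the DNA. Among these targets are negative regulators of the pathway itself, such as *Axin2*, *Nkd1*, *Znrf3* and *Rnf43*. The pathway is known for its part in the renewal of alveolar cells and in lung adenocarcinoma. Runx3 is known to bind β-catenin and TCF proteins in intestinal tumor cells.

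The depth behind the values was estimated at 21.8 M fragments for the KPR- library and 22.4 M for the library labelled KPRrestored, from the steps that whole fragments make in low FPKM values. All 8 epithelial markers were at 82.0 FPKM or more in both libraries. Of the 7 markers of alveolar type 2 cells, *Sftpc*, *Sftpb*, *Sftpa1* and *Lamp3* were listed at 0 in both libraries, *Nkx2-1* lay at 0.0444 and 0.0216 FPKM and *Sftpd* at 0.449 and 0.359 FPKM, while *Abca3* had 18.2 and 14.6 FPKM. The 6 markers of alveolar type 1 and club cells summed to 0.883 and 0.948 FPKM. The summed FPKM went from 13.0 to 5.43 over 9 fibroblast and smooth muscle markers, of which *Col1a1* alone had 12.2 and 4.21 FPKM and *Lum* and *Thy1* were listed at 0. *Dcn* went the other way, at 0.173 and 0.742 FPKM from 6 and 26 fragments, as did *Pdgfra* at 0.273 and 0.363 FPKM. The sum went from 1.19 to 2.24 over 6 endothelial markers, mostly through *Kdr* at 1.10 and 2.05 FPKM. Over 8 immune markers it went from 5.81 to 8.01, with *Cd68* at 3.08 and 6.78 FPKM and *Csf1r* in the other direction at 2.68 and 1.19 FPKM. *Tek*, *Emcn*, *Adgre1*, *Cd3e* and *Lyz2* were listed at 0 in both libraries. *Col1a2*, *Col3a1*, *Pecam1* and *Ptprc* were at 0.0601 FPKM or less in both libraries. Whether fibroblast, endothelial or immune cells were in the cultures, and what part they had in the Wnt values, was not tested. In such bulk libraries, fewer cells of a type and less RNA per cell cannot be told apart.

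Differences are given as log2(FPKM + 0.005) in the library labelled KPRrestored minus that in the KPR- library, and a gene was counted as higher or lower where the difference was 0.5 or more. Of the 42 members, 13 (31.0%) were lower and 3 (7.14%) were higher, against 12.9% lower and 13.8% higher among all 23183 genes. However, 6675 of the 23183 genes were listed at 0 in both libraries and could not pass the threshold, against 1 of the 42 members. Shares of all genes without a filter on FPKM, here and below, include these genes and are lower for it. Of the 13 lower members, 8 had a mean FPKM under 1, where few fragments stand behind a value. Exact 95% limits from the estimated fragments, which cover counting error only, lay wholly below 0 for 7 of the 13 lower members. These were *Wnt4*, *Wnt10a*, *Wnt10b*, *Fzd4*, *Dkk3*, *Axin2* and *Znrf3*. Among all genes, 5.69% were lower by 0.5 or more with such limits below 0. The limits lay above 0 for each of the 3 higher members, *Wnt9a*, *Fzd8* and *Dvl2*, and 6.91% of all genes were higher in this sense.

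An average of 1 FPKM or more over both libraries was reached by 30 members. Of these, 5 were lower and 1 was higher by 0.5 or more, and 24 lay between. *Wnt4*, among the 5 lower members, reached this average only through the KPR- library. Among all 11231 genes with such an average, 9.29% were lower, 12.1% were higher and 21.4% differed in either direction. Of the 24 members that averaged 5 FPKM or more, 2 (8.33%) were lower, near the 7.32% of all genes with that average. The median difference of the 30 members was -0.11, with quartiles of -0.39 and 0.03, beside a median of 0.01 and quartiles of -0.23 and 0.27 for the 11231 genes. Limits below 0 were found for 15 of the 30 members and limits above 0 for 6, where the shares among all genes with such an average were 33.0% and 34.2%. The 42 members have longer transcripts than all genes, with medians of 3720 and 2406 bases, and differences changed with transcript length. Over all 42 members, limits lay below 0 for 17 and above 0 for 8. These counts were 14 and 10 with the median difference of genes of similar transcript length subtracted.

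**Figure D1:**
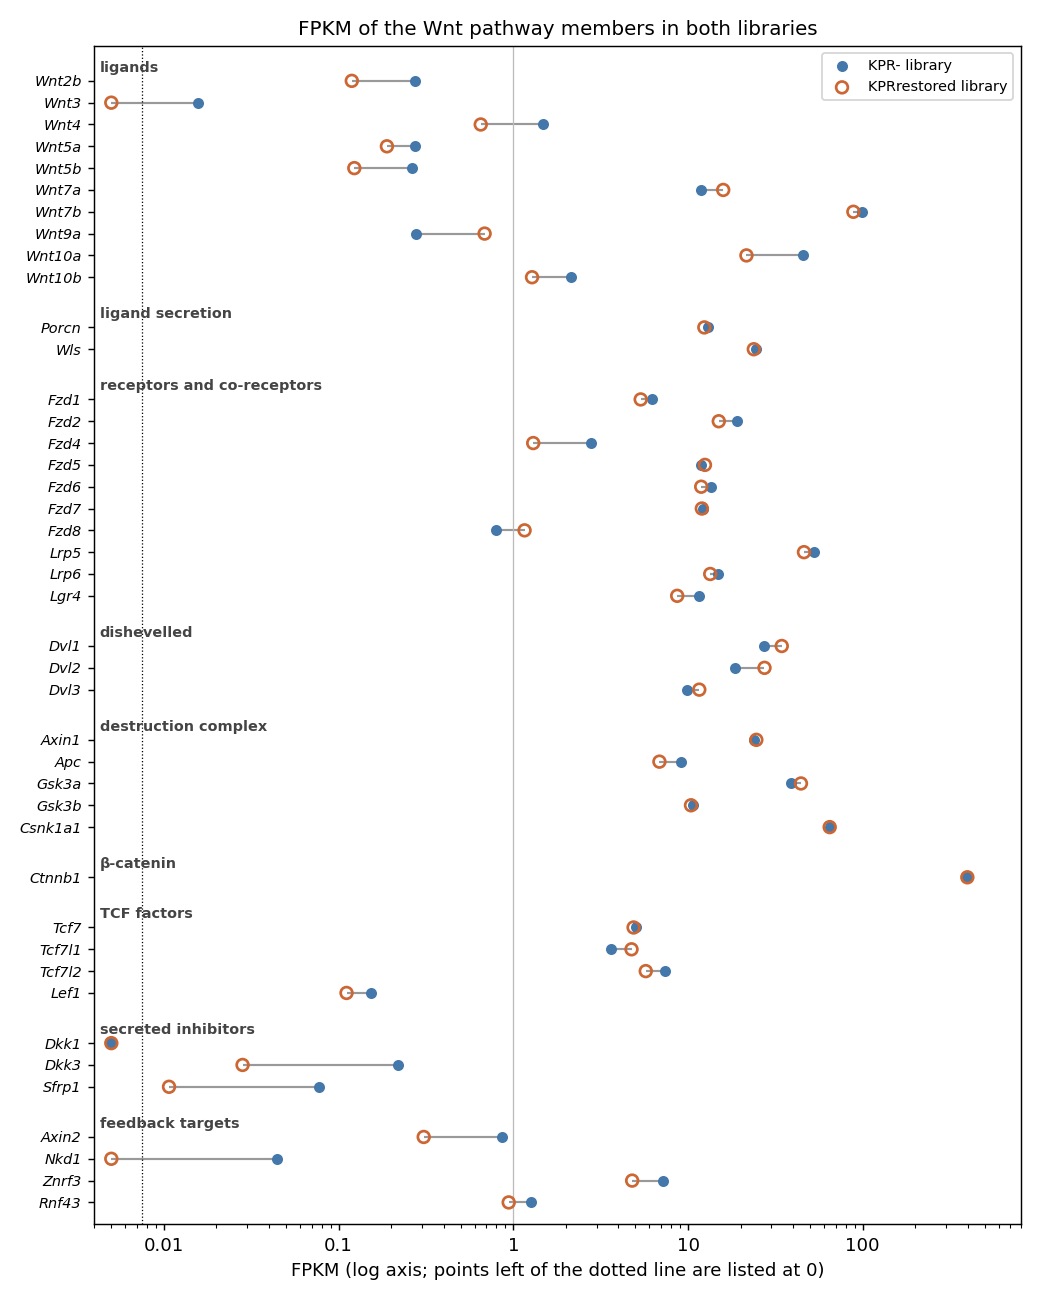
FPKM of the 42 members (rows, grouped by role) in the KPR- library (filled points) and the KPRrestored library (open points), on a log axis. *Ctnnb1* stood highest at 393 and 397 FPKM, and points left of the dotted line, such as both of *Dkk1*, are listed at 0.

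The ligand genes were dominated by *Wnt7b*, a ligand that airway and alveolar epithelium makes during lung development. It stood at 99.4 FPKM at 0 h and 88.4 FPKM at 16 h, a log2 difference of -0.17 with limits of -0.22 to -0.12. *Wnt10a*, a ligand best known from skin and teeth, was the next highest at 45.8 and 21.6 FPKM. This was a 2.12-fold lower level in the library labelled KPRrestored, with a log2 difference of -1.09 and limits of -1.19 to -0.98, from 2253 and 1091 estimated fragments. *Wnt7a* went the other way, from 11.9 to 15.9 FPKM, a difference of 0.41 that stayed under the threshold, with limits of 0.28 to 0.55.

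The remaining ligands were low. *Wnt10b*, a close relative of *Wnt10a*, had 2.15 and 1.28 FPKM and a log2 difference of -0.75, with limits of -1.23 to -0.25. *Wnt4*, a ligand of kidney and reproductive tract development, had 1.48 and 0.651 FPKM, from 128 and 58 fragments, a difference of -1.18 with limits of -1.66 to -0.72. It averaged 1 FPKM only through the KPR- library, and *Rnf43* did likewise. *Wnt9a* was the only ligand member higher by 0.5 or more, at 0.279 and 0.685 FPKM from 19 and 48 fragments, a difference of 1.28 with limits of 0.50 to 2.15.

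The noncanonical ligand *Wnt5a* had 0.273 and 0.189 FPKM, *Wnt5b* had 0.264 and 0.123 FPKM and *Wnt2b* had 0.272 and 0.119 FPKM. All 3 were lower by 0.5 or more, but with 6 to 40 fragments per library their limits included 0. *Wnt3* rested on 1 fragment in the KPR- library and was listed at 0 in the other. Of the 10 ligand members, 7 were lower and 1 was higher, beside 12.9% and 13.8% of all genes. Of the 7 lower ligands, 4 averaged under 1 FPKM, and 3 had limits wholly below 0. The 5 ligands that averaged 1 FPKM or more had a median difference of -0.75, with *Wnt4* among them only through the KPR- library. This median was -0.17 for the ligands that averaged 5 FPKM or more and -0.47 with a pseudocount of 1.

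Summed over the 10 ligand members, FPKM went from 162 to 129, a log2 ratio of -0.33. *Wnt7b* made up 61.4% of this sum in the KPR- library and 68.6% in the library labelled KPRrestored. *Wnt10a* went from 28.3% to 16.7% and *Wnt7a* from 7.36% to 12.3%. The other 7 ligands each made up at most 1.33% in either library. The order of the leading 3 ligands was *Wnt7b*, *Wnt10a*, *Wnt7a* in both libraries.

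**Figure D2:**
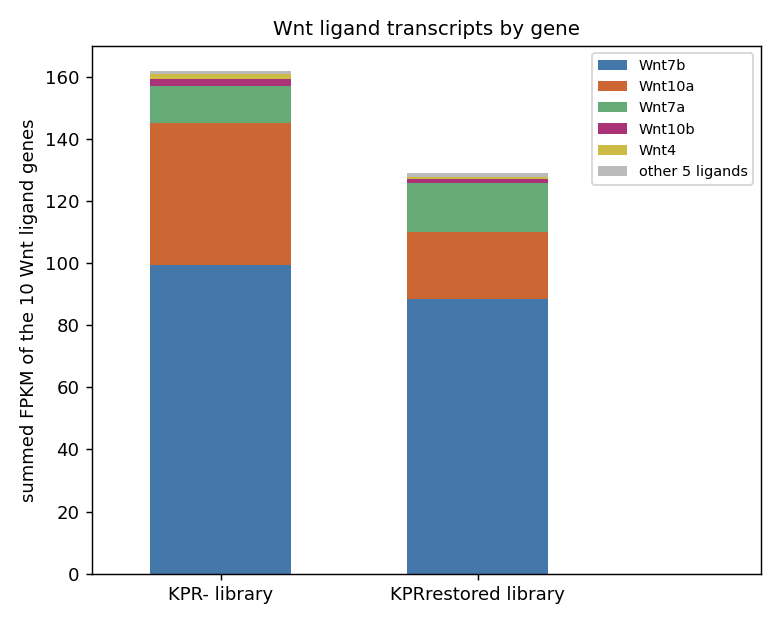
Summed FPKM of the 10 Wnt ligand members (bar height, linear axis from 0) in each library, split by gene. The sum was 162 FPKM at 0 h and 129 FPKM at 16 h, and most of the difference lay in the *Wnt10a* segment, at 45.8 against 21.6 FPKM.

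Several Wnt genes lie side by side in the genome, and the files hold 4 such pairs with a ligand member. *Wnt10a* (GRCm38 chromosome 1, bases 74791516 to 74804179, plus strand) starts 6.19 kb after the end of *Wnt6* on the same strand. *Wnt6* had 0.221 and 0.0478 FPKM, from 9 and 2 fragments, with limits of -5.46 to 0.06, far below the 45.8 and 21.6 FPKM of its neighbour. *Wnt10b* and *Wnt1* lie 11.7 kb apart on chromosome 15, and *Wnt1* rested on 1 fragment in the KPR- library and was listed at 0 in the other. On chromosome 11, *Wnt3a*, beside *Wnt9a*, and *Wnt9b*, beside *Wnt3*, were listed at 0 in both libraries, so the pair of *Wnt9b* and *Wnt3* had 1 fragment in all.

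The genes for ligand secretion hardly differed between the libraries. *Porcn*, the acyltransferase that attaches the lipid to Wnt proteins, had 13.0 and 12.4 FPKM, a log2 difference of -0.07 with limits of -0.23 to 0.09. *Wls*, the carrier that takes lipidated Wnt proteins to the cell surface, had 24.5 and 23.8 FPKM, a difference of -0.04 with limits of -0.14 to 0.05.

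Of the 10 receptor and co-receptor members, 1 was lower and 1 was higher by 0.5 or more, close to the 12.9% and 13.8% of all genes. *Fzd4*, a Frizzled receptor that also binds the non-Wnt ligand Norrin, had 2.78 FPKM at 0 h and 1.30 FPKM at 16 h. The log2 difference was -1.09, with limits of -1.35 to -0.84 from 394 and 190 fragments. *Fzd8* was higher at 0.801 and 1.16 FPKM, a difference of 0.53 with limits of 0.16 to 0.91, and it averaged under 1 FPKM.

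Among the more abundant Frizzled genes, *Fzd2* had 19.1 and 15.0 FPKM, a log2 difference of -0.35 with limits of -0.46 to -0.24. *Fzd5*, *Fzd6* and *Fzd7* lay between 11.9 and 13.5 FPKM in both libraries, with differences of 0.07, -0.18 and -0.03. *Fzd1* had 6.21 and 5.36 FPKM. The summed FPKM of the 7 Frizzled members went from 66.6 to 59.3. Of the 6 that averaged 1 FPKM or more, 4 had limits wholly below 0, beside 33.0% of all genes with such an average. The cells thus had transcripts of several Frizzled genes at similar levels, in contrast to the ligands, where 1 gene led.

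*Lrp5* was the most abundant receptor member at 52.5 and 46.1 FPKM, a log2 difference of -0.19 with limits of -0.24 to -0.13. *Lrp6* had 14.8 and 13.4 FPKM, a difference of -0.14. *Lgr4*, a receptor for R-spondins, which strengthen Wnt signals, had 11.6 and 8.67 FPKM and a difference of -0.42 with limits of -0.55 to -0.30, just under the threshold. The 9 receptor members that averaged 1 FPKM or more had a median of -0.19. A difference below 0 was found for 8 of them, and for 5503 of all 11231 genes with such an average.

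These genes have long transcripts, and differences in these libraries changed with transcript length. Genes with transcripts of 6463 bases or more had a median log2 difference of -0.19, and those under 1192 bases had a median of 0.08. With the median of genes of similar length subtracted, *Fzd4* was at -0.90 and *Lgr4* at -0.32, while *Lrp5* was at -0.09, and *Fzd7* at 0.01 and *Lrp6* at 0.05 had changed sign.

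The 3 Dishevelled genes, whose products carry the signal from Frizzled to the destruction complex, were all measured higher in the library labelled KPRrestored. A difference above 0 was found for 5728 of the 11231 genes that averaged 1 FPKM or more, and 3 genes are too few to be read against that share. *Dvl1* had 27.1 and 34.4 FPKM, a log2 difference of 0.35 with limits of 0.26 to 0.43. *Dvl2* had 18.5 and 27.4 FPKM, from 1114 and 1694 fragments, a difference of 0.56 with limits of 0.45 to 0.67. *Dvl3* had 9.81 and 11.6 FPKM, a difference of 0.24 with limits of 0.10 to 0.37. Only *Dvl2* passed the threshold, and the FPKM summed over the 3 genes went from 55.4 to 73.4. Exons of *Dvl2* overlap those of *Acadvl* on the other strand, which had 24.1 and 25.7 FPKM. Whether the counting used strand is not given in the sources used here.

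In the destruction complex, 0 of 5 genes passed the threshold in either direction, where 21.4% of all genes that averaged 1 FPKM or more did. With 5 genes, the count is too small to be read against that share. *Csnk1a1*, the kinase that first phosphorylates β-catenin, was the most abundant at 64.8 and 64.7 FPKM, with limits of -0.06 to 0.05. *Axin1*, the scaffold, had 24.0 and 24.6 FPKM with limits of -0.06 to 0.12, and *Gsk3b*, the other kinase, had 10.7 and 10.4 FPKM with limits of -0.13 to 0.06. *Gsk3a* had 38.7 and 44.3 FPKM, a difference of 0.19 with limits of 0.10 to 0.29, and overlaps *9130221H12Rik* on the other strand, which had 10.8 and 12.2 FPKM.

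*Apc*, the tumor suppressor that holds the complex together, had 9.08 and 6.86 FPKM, a log2 difference of -0.41 with limits of -0.49 to -0.32. Its longest transcript of 12811 bases is the longest among the members. With the trend of transcript length removed, its difference was -0.21.

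*Ctnnb1*, which encodes β-catenin, is at bases 120929216 to 120960507 of chromosome 9 (plus strand). Its level exceeded that of every other member, at 393 and 397 FPKM, above 98.3% and 98.4% of the genes that averaged 1 FPKM or more. The log2 difference was 0.02, with limits of -0.01 to 0.04 from 29223 and 30385 fragments, and it was -0.02 when both libraries were scaled to the same upper quartile. β-catenin is controlled mainly through its degradation, which transcript levels do not measure.

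Of the 4 TCF factors, 0 passed the threshold, a number of genes too small to set against the share of all genes. *Tcf7l2*, the factor partnered with β-catenin in many epithelia, had 7.34 and 5.73 FPKM, a log2 difference of -0.36 with limits of -0.54 to -0.17. *Tcf7l1*, known mainly as a repressor, had 3.60 and 4.75 FPKM, a difference of 0.40 with limits of 0.14 to 0.66. *Tcf7* had 5.02 and 4.88 FPKM with limits of -0.30 to 0.22. *Lef1*, which is also a Wnt target in many tissues, had 0.153 and 0.111 FPKM from 11 and 8 fragments, with limits of -2.02 to 0.95, so a change of moderate size was not detectable at this depth.

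The sum over the 4 factors was 16.1 and 15.5 FPKM. Within it, *Tcf7l2* went from 45.6% to 37.0% and *Tcf7l1* from 22.3% to 30.7%, so the level of the repressor came closer to that of *Tcf7l2*.

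**Figure D3:**
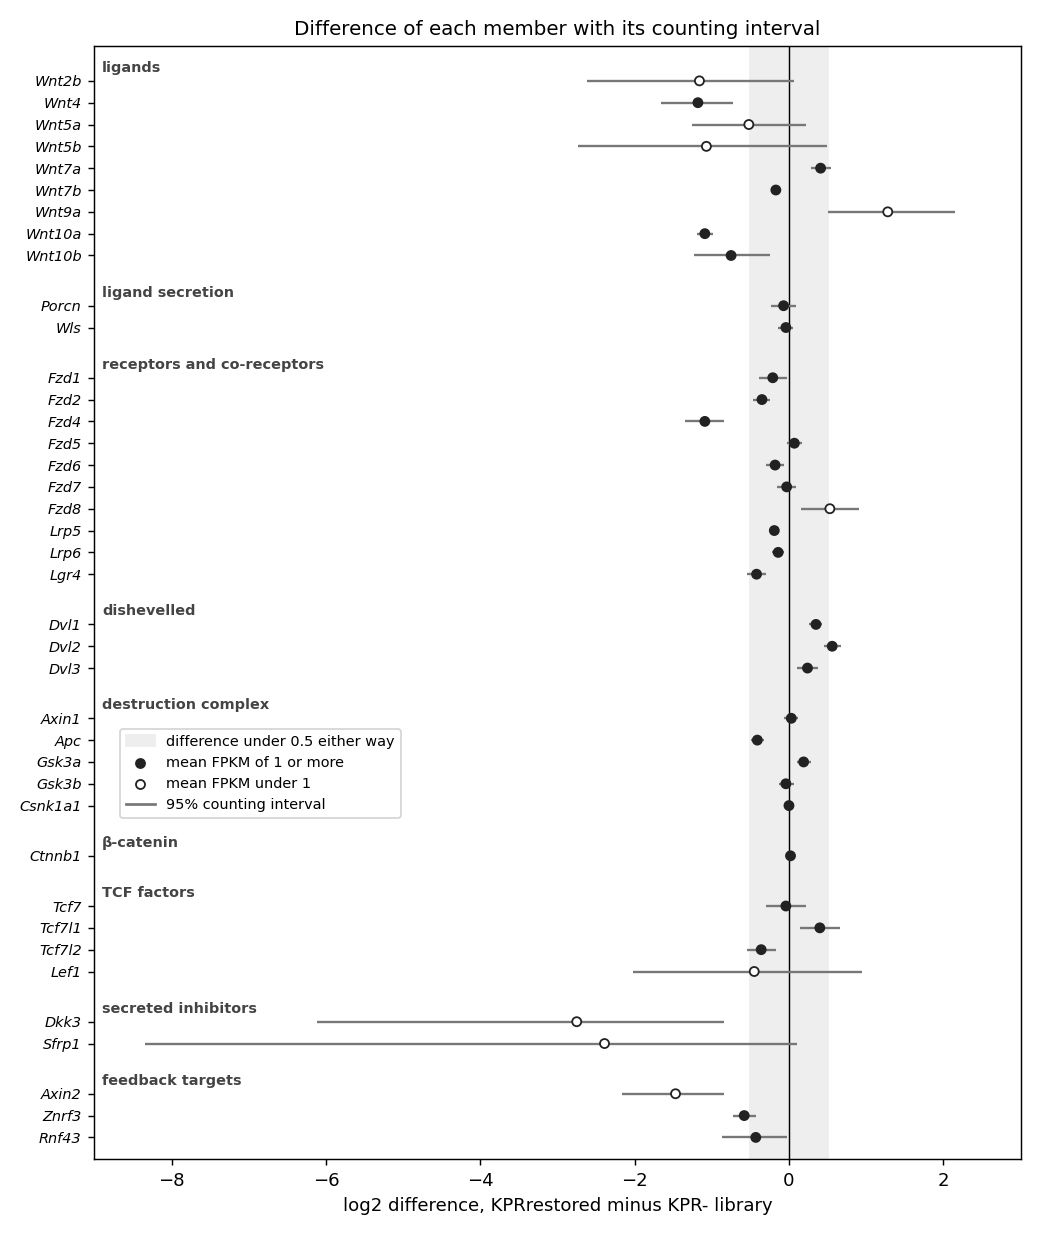
Log2 difference of each member (points) with its exact 95% counting interval (lines), by role. The grey band marks differences under 0.5 either way, *Axin2* lies at -1.47, *Wnt10a* at -1.09 and *Dvl2* at 0.56, and *Wnt3*, *Nkd1* and *Dkk1*, which were listed at 0 in at least 1 library, are not drawn.

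The 3 secreted inhibitors were almost absent. *Dkk1*, which blocks Lrp5 and Lrp6, was listed at 0 in both libraries, which at 3 fragments allows up to 0.0622 and 0.0604 FPKM. *Dkk3* had 0.218 and 0.0282 FPKM, from 15 and 2 fragments, a ratio of 7.72 with limits of -6.12 to -0.84 on the log2 scale. *Sfrp1*, which binds Wnt proteins outside the cell, had 0.0769 and 0.0107 FPKM, from 7 and 1 fragments, with limits of -8.34 to 0.11.

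All 4 feedback targets had lower values in the library labelled KPRrestored, where *Nkd1* was listed at 0 and its limits included no difference. A difference below 0 was found for 5503 of the 11231 genes that averaged 1 FPKM or more. With 4 genes, of which 2 averaged under 1 FPKM, the count is too small to be read against that share. *Axin2*, a second scaffold of the destruction complex and the most widely used readout of β-catenin and TCF activity, had 0.858 FPKM at 0 h and 0.307 FPKM at 16 h. This was 2.80-fold lower, with a log2 difference of -1.47 and limits of -2.16 to -0.84, from 76 and 28 fragments. The level was low in both libraries, above 0.668% and 0.134% of the genes that averaged 1 FPKM or more.

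*Znrf3* and *Rnf43* encode ubiquitin ligases that remove Frizzled and Lrp6 from the cell surface. *Znrf3* had 7.15 and 4.79 FPKM, a log2 difference of -0.58 with limits of -0.72 to -0.43, and -0.48 with the trend of transcript length removed. *Rnf43* had 1.27 and 0.941 FPKM, a difference of -0.43 with limits of -0.87 to -0.03. With the shortest coding transcript used for the fragment estimate, the limits of *Rnf43* included 0, at -0.89 to 0.02. *Nkd1*, which binds Dishevelled, had 0.0446 FPKM from 4 fragments in the KPR- library and was listed at 0 in the other, with an upper limit of 0.56.

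The other genes of the pathway were read from a list of 107 genes, of which 106 had a value. Of these 106, 18 (17.0%) were lower and 16 (15.1%) were higher by 0.5 or more, beside 12.9% and 13.8% of all genes. Of the 69 that averaged 1 FPKM or more, 10 (14.5%) were lower and 7 (10.1%) were higher, beside 9.29% and 12.1%. *Lgr5* and *Ror1* were among the 69 only through the KPR- library. *Lgr5*, an R-spondin receptor, Wnt target and stem cell marker of the gut, had 3.54 FPKM at 0 h and 0.434 FPKM at 16 h, 8.18-fold lower, from 348 and 44 fragments. The log2 difference was -3.02, with limits of -3.51 to -2.57.

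*Lgr6*, the third R-spondin receptor and the most abundant in these cells, had 25.9 and 13.7 FPKM, a log2 difference of -0.92 from 3654 and 1980 fragments, and of -0.73 with the length trend removed. Together with *Lgr4*, the summed FPKM of the 3 R-spondin receptors went from 41.1 to 22.8, a log2 ratio of -0.85, so all 3 receptors were measured lower. The R-spondins themselves were low, with *Rspo3* at 1.76 and 1.58 FPKM, *Rspo2* at 1 fragment in the KPR- library and *Rspo1* and *Rspo4* listed at 0 in both libraries.

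Of the other receptors, *Ror1*, a receptor for Wnt5a, had 1.67 and 0.852 FPKM, a difference of -0.97 with limits of -1.33 to -0.63. *Ryk* had 31.0 and 24.2 FPKM, a difference of -0.36, and *Ptk7* had 13.8 and 15.3 FPKM, a difference of 0.16. Of the 14 other secreted or membrane inhibitors, *Apcdd1*, a Wnt-induced membrane inhibitor, had 9.32 FPKM at 0 h and was 3.11-fold lower at 16 h, from 340 and 113 fragments, a difference of -1.63 with limits of -1.95 to -1.32. *Kremen1*, a receptor for Dkk proteins, had 10.1 and 7.10 FPKM, a difference of -0.51 with limits of -0.65 to -0.38, and of -0.47 with the length trend removed. *Dkk2* had 0.889 and 1.17 FPKM, with limits of -0.09 to 0.86.

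Other genes known as Wnt targets, many of which have further regulators, were measured in both directions. Of the 15 other target genes that averaged 1 FPKM or more, 7 were higher and 2 were lower by 0.5 or more, where 12.1% and 9.29% of all genes with such an average were. The 7 higher genes were *Sox9* (13.6 and 29.6 FPKM), *Jun* (13.6 and 29.3 FPKM), *Sp5* (6.10 and 10.1 FPKM), *Fosl1* (15.2 and 24.7 FPKM), *Myc* (73.6 and 117 FPKM), *Ppard* (15.6 and 24.5 FPKM) and *Ephb3* (6.71 and 9.67 FPKM), with log2 differences from 0.53 to 1.13.

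The lower genes of this list were *Id2*, an inhibitor of helix-loop-helix factors, at 93.6 and 36.6 FPKM (log2 difference -1.36) and *Ccnd1*, which encodes cyclin D1, at 331 and 203 FPKM (log2 difference -0.71). *Cd44* had 153 and 149 FPKM. *Nkd2*, a relative of *Nkd1*, had 0.106 and 0.471 FPKM from 9 and 40 fragments, with limits of 1.05 to 3.34, whereas the limits of *Nkd1* included 0.

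**Figure D4:**
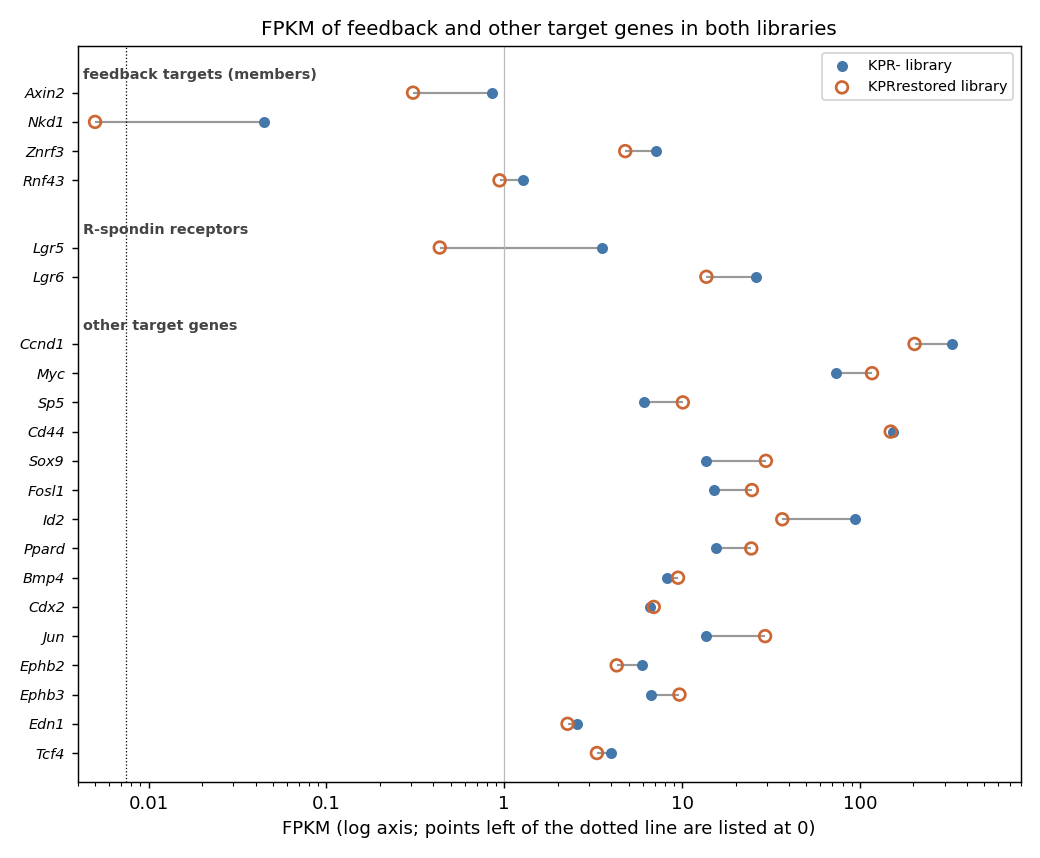
FPKM on a log axis of the 4 feedback targets, of *Lgr5* and *Lgr6* and of the 15 other target genes that averaged 1 FPKM or more, in the KPR- library (filled points) and the KPRrestored library (open points). Points left of the dotted line, here *Nkd1* in the KPRrestored library, are listed at 0 and have no place on the log scale. The open point lies left of the filled point for *Axin2*, *Znrf3* and *Rnf43* and right of it for *Sox9*, *Jun*, *Sp5*, *Myc*, *Fosl1*, *Ppard* and *Ephb3*.

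*Axin2* and *Sp5* are both direct targets of β-catenin and TCF in many tissues and differed in opposite directions here. This pair was picked after the values were seen. The upstream sequence of each is shown as the 250 bases before the RefSeq start site on GRCm38.p6, 5′ to 3′. Whether these sequences bear on the difference was not tested, and sequence outside the windows was not searched. Capitals mark CTTTGA or its reverse complement TCAAAG, a form of the core of the TCF and LEF motif. Other forms, such as CTTTGT, were not searched or marked. TGTGGT or its reverse complement ACCACA, a form of the core of the RUNX motif, was also searched on both strands.
*Axin2*, chr11:108920099-108920348, plus strand: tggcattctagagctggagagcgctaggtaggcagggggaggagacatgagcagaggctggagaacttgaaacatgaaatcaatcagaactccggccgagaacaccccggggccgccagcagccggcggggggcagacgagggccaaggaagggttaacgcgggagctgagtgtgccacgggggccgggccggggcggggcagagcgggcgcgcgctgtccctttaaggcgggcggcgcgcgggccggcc
*Sp5*, chr2:70474673-70474922, plus strand: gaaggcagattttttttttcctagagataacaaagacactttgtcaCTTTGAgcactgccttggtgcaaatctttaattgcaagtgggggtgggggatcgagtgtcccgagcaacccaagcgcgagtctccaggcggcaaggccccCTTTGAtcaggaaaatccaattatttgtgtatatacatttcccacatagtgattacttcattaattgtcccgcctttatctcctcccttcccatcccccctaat

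The *Sp5* window holds the TCF letters at 2 places, starting 204 and 104 bases before the start site, and the *Axin2* window holds none. Neither window holds the RUNX letters. Among all 32851 RefSeq start sites, 13.8% of such windows held the TCF letters and 14.0% held the RUNX letters. Of the 36 start sites of the 27 members with an entry, 6 held the TCF letters and 1, that of *Dkk1*, held the RUNX letters. A match is a run of letters and not a measured binding site.

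**Figure D5:**
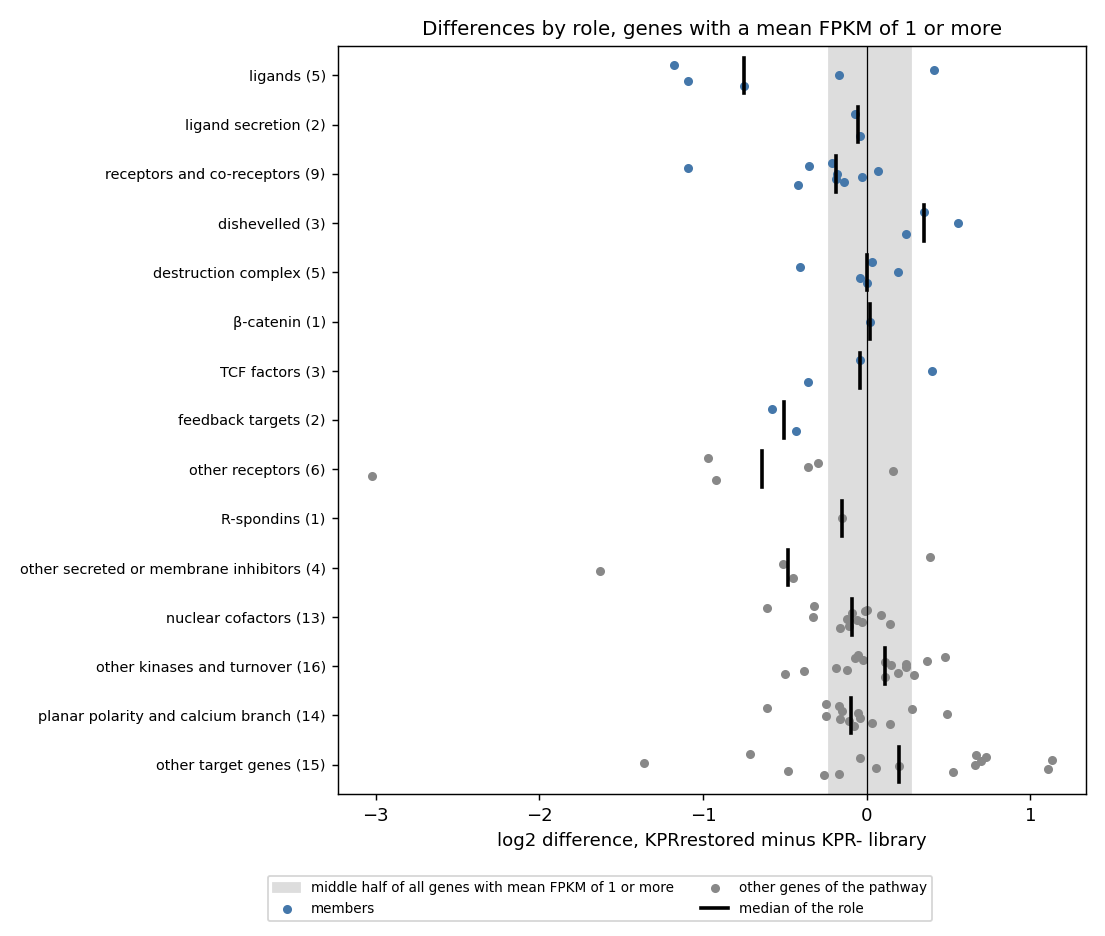
Log2 differences by role of genes that averaged 1 FPKM or more, for the members (blue) and the other genes of the pathway (grey), with the number of genes in parentheses. Black bars are medians, -0.75 for the ligand members (-0.17 for those that averaged 5 FPKM or more) and 0.35 for Dishevelled. *Wnt4*, among the ligands drawn, averaged 1 FPKM only through the KPR- library. The grey band is the middle part of all 11231 genes, from the lower to the upper quartile (-0.23 to 0.27).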

How the data were processed

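RNA from 1 KPR- culture and 1 KPRrestored culture was sequenced as paired-end reads. The authors trimmed the reads, mapped them using TopHat (mm10 in the submitters' processing notes, which is GRCm38) and deposited FPKM values estimated using Cufflinks, 1 per gene and library. The methods also name read counts processed with edgeR, which were not used here. Versions and the annotation are not given in the sources used here.

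Members were matched by symbol. Members, gene lists and alternatives were chosen with earlier results of these data known. By rule, values were printed for members that averaged 1 FPKM or more and passed the threshold, for the highest member of each role, for *Ctnnb1*, *Axin2*, *Nkd1*, *Rnf43*, *Znrf3*, *Lef1*, *Tcf7*, *Dkk1*, *Porcn* and *Wls*, and for the largest rise and fall of log2(FPKM + 1) in each role of the wider list. Other genes were named after their values were seen.

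With 1 library per group there is no test of the conditions. Depth was fitted to the steps of FPKM of genes with a single transcript length in GENCODE M21. Of 452 and 451 such genes with 0.5 to 5.5 fragments, 78.8% and 78.5% came out within 0.1 of an integer (20% for evenly spread values without a fit). Depth and fragment length were fitted to these same values, so these shares are not a separate check. Estimated fragments use the longest transcript with a RefSeq counterpart and a mean fragment length of 216 bases. Clopper-Pearson 95% limits of their ratio cover counting error only. Depth fit and limits were tested on simulated data with a single transcript length per gene. The simulation thus did not cover errors from genes with several transcripts. FPKM were not rescaled. The trend with length was removed by subtracting the median of genes of similar transcript length (10 bins). Promoter sequences are from RefSeq (GRCm38.p6), where 27 of the 42 members matched. Analyses ran in Python 3.11.15 with pandas 2.3.3, scipy 1.17.1, numpy 2.4.6 and matplotlib 3.10.9. Alternatives were other pseudocounts, filters, scalings, thresholds and transcript lengths. Of 107 genes on the wider list, 1 was not matched.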

Additional observations from a re-analysis of the deposited data

How the results depend on the processing

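With a pseudocount of 1, the lower members were 4 of 42 (9.52%, against 3.61% of all genes) and 3 of the 30 that averaged 1 FPKM or more (10.0% against 6.78%), the higher members were 1 of 42 (2.38% against 4.92%), the medians of the ligands and feedback targets were -0.47 and -0.36, and 8 lower and 6 higher genes were counted on the wider list. *Wnt10b* and *Znrf3* dropped under the threshold there, and *Znrf3* also with the length trend removed. Without the filter on mean FPKM, 13 members were lower and 3 higher, and the medians were -0.91 for the ligands, -1.02 for the feedback targets and -0.20 for the TCF factors. With an average of 5 FPKM or more required, 2 members were lower (8.33% against 7.32%), and the medians were -0.17 for the ligands and -0.36 for the TCF factors. With a threshold of 1, 3 members that averaged 1 FPKM or more were lower (10.0% against 1.38%) and 0 higher (2.89% of all genes). *Wnt4*, 1 of the 3 both here and with a pseudocount of 1, reached that average only through the KPR- library. At the threshold of 1, 1 of the 42 was higher (2.38% against 7.01%), and the wider list had 11 lower and 6 higher genes. A larger pseudocount shrinks the differences of low genes, and the filters and threshold change which genes are counted, by construction.

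Scaling to the same total, upper quartile or median gene, a pseudocount of 0.1 and removal of the length trend left each of these counts of members within 1.5 times its value, and the shortest coding transcript did so for the counts of members with limits beside 0. No member past the threshold changed sign under the alternatives run. No paired analysis was possible because there is 1 library per condition.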

Other observations

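Among all genes that averaged 1 FPKM or more, 21.4% differed by 0.5 or more in either direction and 9.29% were lower. Of 13 nuclear cofactors that averaged 1 FPKM or more, 1 was lower by 0.5 or more, *Bcl9l*, which ties β-catenin to Pygopus proteins, at 14.4 and 9.38 FPKM (log2 difference -0.61, counting limits of -0.71 to -0.52). Its relative *Bcl9* had 9.19 and 7.35 FPKM, *Cby1*, an antagonist of β-catenin, had 20.7 and 22.8 FPKM, and *Pygo2* had 31.0 FPKM in both libraries. Of 16 other kinases and turnover genes, *Usp34*, a deubiquitinase that acts on Axin, passed the threshold at 17.5 and 12.3 FPKM (-0.50), while *Csnk1e*, a kinase of Dishevelled, had 53.3 and 74.5 FPKM (0.48, limits of 0.42 to 0.54). With the trend of transcript length removed, *Bcl9l* and *Usp34* were at -0.42 and -0.31.

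In the planar polarity and calcium branch, 1 of 14 genes with such an average passed the threshold. *Celsr1*, an atypical cadherin of planar polarity, had 21.4 and 14.1 FPKM (-0.61, limits of -0.67 to -0.54), and -0.42 with the length trend removed. *Daam1*, a formin that binds Dishevelled, had 7.89 and 11.1 FPKM (0.49, limits of 0.38 to 0.61). *Vangl1*, *Vangl2* and *Scrib* had differences of -0.25, -0.17 and -0.25. Of the 9 other Wnt ligands, *Wnt16* was the highest at 0.752 and 1.16 FPKM, with limits of -0.15 to 1.42, and 4 were listed at 0 in both libraries.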
